A study of Homo sapiens with 25 samples.

Results

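Of 263651 distal regions with H3K27ac in any library of this series, 20474 (7.77%) carried it in both libraries of definitive endoderm and in no library of the other stages. They were found by pooling and merging the H3K27ac peaks of all 8 libraries, keeping chromosomes 1 to 22 and X, and leaving out every merged region within 2 kb of an annotated gene start or end. A region then had to overlap a peak in both definitive endoderm (hDE) libraries and none in the 6 libraries of embryonic stem cells (hESC), anterior foregut (hAFE) and pharyngeal foregut (hPFE). The regions were thus chosen by H3K27ac presence and absence, which are given only as a description. They are called hDE-only regions below.

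The series measured H3K27ac, H3K27me3 and H3K4me2 by chromatin immunoprecipitation with sequencing at 4 stages of directed differentiation of H1, a long established line of human embryonic stem cells. The stages were undifferentiated cells (hESC), definitive endoderm (hDE), then foregut endoderm of anterior (hAFE) and finally of pharyngeal character (hPFE). All groups are the same H1 line, so every result rests on 1 genotype, and the labels do not say whether replicates were separate cultures. Each stage had 2 libraries per mark, except for 1 library of H3K27me3 in hAFE and 1 of H3K4me2 in each of hAFE and hPFE. The hESC libraries of H3K27ac and H3K27me3 are labelled as re-analysed from an earlier deposit, so stage and deposit cannot be told apart wherever these marks in hESC are compared with later stages.

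H3K27ac marks active promoters and enhancers, and far from gene ends it is a common sign of an active enhancer. H3K4me2 lies on accessible promoters and enhancers, whether or not they are active, and H3K27me3 is deposited by Polycomb complexes on silent developmental genes. Acetylation and methylation compete for the same lysine, so a single histone tail carries H3K27ac or H3K27me3 but not both. Definitive endoderm arises through the primitive streak under Nodal signalling, and gives rise to the lining of the gut and to organs such as liver, lung, thymus and thyroid.

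No genome sequence was used, and the DNA of most hDE-only regions is therefore not shown. For 14 of them a whole promoter window lay inside the region, because the distance rule used the outer ends of each gene and not the starts of its inner transcripts. The 5 of these with the strongest H3K27ac are printed, since they are pieces of hDE-only regions whose letters are known. Each run is the 250 bases before an annotated transcript start (RefSeq, GRCh38.p14), 5′ to 3′ on the strand of the gene. Capitals mark matches to the motifs AGATAA of GATA factors, TGTTTAC of forkhead factors, AACAAT of SOX factors, GGTGTGA of T-box factors and AATCCACA of FOXH1, searched on both strands, and no 2 matches shown overlap.
NODAL, chr10:70441682-70441931, minus strand: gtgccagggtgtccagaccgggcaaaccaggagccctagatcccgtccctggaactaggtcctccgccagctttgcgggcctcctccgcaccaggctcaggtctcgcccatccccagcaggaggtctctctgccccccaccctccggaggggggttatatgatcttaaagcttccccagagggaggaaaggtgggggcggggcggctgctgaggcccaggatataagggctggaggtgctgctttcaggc
ELAPOR2, chr7:86965900-86966149, minus strand: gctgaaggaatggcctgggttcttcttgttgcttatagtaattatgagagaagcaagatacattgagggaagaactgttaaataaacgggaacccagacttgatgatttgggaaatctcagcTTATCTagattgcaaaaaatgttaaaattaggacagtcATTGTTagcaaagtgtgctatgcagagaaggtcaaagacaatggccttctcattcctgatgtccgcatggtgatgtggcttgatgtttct
CYTH1, chr17:78736903-78737152, minus strand: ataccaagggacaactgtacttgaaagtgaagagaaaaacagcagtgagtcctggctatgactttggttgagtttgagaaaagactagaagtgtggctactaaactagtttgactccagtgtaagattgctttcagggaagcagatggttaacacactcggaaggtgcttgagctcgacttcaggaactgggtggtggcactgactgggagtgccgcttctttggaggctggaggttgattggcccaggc
KLF8, chrX:56232908-56233157, plus strand: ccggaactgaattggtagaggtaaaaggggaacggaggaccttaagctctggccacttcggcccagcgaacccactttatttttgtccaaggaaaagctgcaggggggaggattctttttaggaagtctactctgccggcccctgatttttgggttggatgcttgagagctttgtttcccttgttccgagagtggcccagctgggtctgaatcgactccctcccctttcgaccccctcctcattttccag
SAMD3, chr6:130215888-130216137, minus strand: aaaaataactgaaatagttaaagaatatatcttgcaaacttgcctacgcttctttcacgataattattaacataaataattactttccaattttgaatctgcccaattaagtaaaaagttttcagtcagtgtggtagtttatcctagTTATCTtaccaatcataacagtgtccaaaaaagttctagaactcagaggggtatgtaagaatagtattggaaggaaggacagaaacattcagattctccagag
The ELAPOR2 window holds the GATA factor and SOX factor motifs, each read on the other strand. SAMD3 holds the GATA factor motif on the other strand, and no motif letters were found in the other 3 runs. Over all 14 windows a GATA factor match stood in 3 and a SOX factor match in 1, against 9.18% and 8.95% of all 34961 promoter windows of the same length. Forkhead, T-box and FOXH1 matches stood in 0 of the 14, against 2.98%, 2.77% and 0.709%. These matches describe letters and name no binding site.

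Inner transcript starts were rare among hDE-only regions. Outside chromosome 8, for which the promoter table held no entry, 33 of 19393 regions (0.170%) contained an annotated transcript start and 230 (1.19%) lay within 2 kb of one. The NODAL region, for example, holds the start of a NODAL transcript, although it lies 4127 bp from the nearer outer end of that gene. Of the regions with a start within 2 kb, 50.9% had H3K4me2 in both hDE libraries, compared with 19.9% of the others.

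The hDE label was checked on markers at gene ends. All 7 definitive endoderm markers (SOX17, FOXA2, GATA6, EOMES, CXCR4, CER1 and GSC) carried H3K27ac within 1 kb of a gene end in both hDE libraries and 0 of 7 in hESC. Over all protein-coding genes 54.1% did in hDE. The 4 extraembryonic endoderm markers of this check (SOX7, PDGFRA, AFP and TTR) and the 3 neural markers (PAX6, SOX1 and LHX2) did not carry it in both hDE libraries. Of the longer lists used below, 8 of 14 extraembryonic endoderm genes carried it in both (GATA6, SOX17, COL4A1, COL4A2, LAMA1, LAMB1, DAB2 and SPARC), of which GATA6 and SOX17 are also definitive endoderm markers, and 1 of 16 neural genes did (SIX3). It was present at 2 of 5 stem cell markers (NANOG and PRDM14) and at 2 of 5 mesoderm and blood markers (KDR and TBX6), both of which also carried it in hESC. In bulk chromatin, fewer cells with a mark and less of it per cell cannot be told apart.

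Peak lists differed in length, which bears on which regions count as hDE only. The hDE H3K27ac lists held 101186 and 111076 peaks, the hESC lists 75087 and 68306, the hAFE lists 42100 and 24871, and the hPFE lists 81170 and 111256. With each list cut to its strongest 24790 peaks, 4926 regions met the rule. If replicate 1 or replicate 2 of hDE was left out, so that a peak in the remaining hDE library sufficed, 56770 and 50089 regions met it. Sequencing depth was not known for any list, and a missing peak does not show that the mark was absent.

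The hDE-only regions made up 63.6% of the 32180 distal regions with H3K27ac in both hDE libraries. The other 11706, called hDE and elsewhere, had a peak in 1 to 6 further libraries, and 989 of them had one in all 8. A single further library kept out 4510 regions, of which 1550 had their only other peak in hPFE replicate 2 and 1176 in hESC replicate 1. Within 2 kb of a gene end, another 4083 merged regions met the H3K27ac condition and were set aside by the distance rule. At that limit, regions 1997, 1999 and 2000 bp from MTCYBP35, GATA4 and SNORA74A fell just outside the set, with H3K27ac fold enrichments of 6.60 and 6.78, 4.55 and 4.81, and 5.35 and 6.97 in hDE replicates 1 and 2. Just inside it were regions 2001 bp from LOC105376526, LINC00380 and LOC107986549, with 3.83 and 2.94, 3.65 and 4.81, and 4.86 and 2.93. Here and below fold enrichment is the authors' own ratio of signal over control for a region's strongest peak, replicate 1 first.

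Together the hDE-only regions covered 12.9 Mb. Their width ran from 160 to 7610 bp with a median of 482 bp. That was narrower than the median of 864.5 bp for hDE and elsewhere and wider than the 210 bp of all distal regions. Their fold enrichment ran from 1.77 to 19.0 in replicate 1 (median 3.83) and from 1.77 to 22 in replicate 2 (median 3.92), and 300 regions reached 10 in both. In 65.9% of them the deposited −log10 q was at least 2 in both lists. The remainder had weaker support in at least 1 library, and the weakest region, near CSRNP3, had fold enrichments of 1.91 and 2.16. Across the regions the fold enrichments of the replicates had a Spearman correlation of 0.596, a description over regions that share their libraries.

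None of the 15 strongest hDE-only regions lay nearest to a gene of the lists used below. The first by mean rank of −log10 p was chr5:38337074-38341349, 4276 bp long inside EGFLAM, which encodes an extracellular matrix protein, with fold enrichments of 18.1 and 19.9. H3K4me2 lay on it in both hDE libraries (5.12 and 5.82) and in no other, and H3K27me3 in no library. Next came chr7:139089294-139092099 inside ZC3HAV1, an antiviral zinc finger protein gene, with 17.0 and 21.9. It was followed by chr1:48209417-48214477, 8239 bp from SLC5A9, a sodium-coupled sugar transporter gene, with 17.8 and 21.4. Regions nearest to LOC124903407, MGST2 (a glutathione transferase), PSMA6 (a proteasome subunit), NFASC (neurofascin, 2 regions), SERINC3, PCDH10 (a protocadherin), TBC1D22A, SEC24B (a vesicle coat protein), TMEM87B and BLK (a Src family kinase) were also among the 15. Over the 15, fold enrichments were 12.8 to 19.0 in replicate 1 and 14.7 to 21.9 in replicate 2. All 15 had H3K4me2 in both hDE libraries, and 3 of them in 1 hESC library, among them PSMA6 and the narrower NFASC region. The BLK region on chromosome 8 was the only 1 of the 15 with H3K27me3 in both hESC libraries (2.80 and 3.03), and it had none in hDE.

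H3K4me2, which the rule did not use, was far more frequent on hDE-only regions in hDE than before or after. A peak overlapped 32.7% of them in hDE replicate 1 (6703 regions, exact 95% interval 32.1 to 33.4%) and 32.8% in replicate 2 (6722). In hESC the shares were 7.64% and 6.74%, in the hAFE library 6.84% and in the hPFE library 3.61%. Both hDE libraries thus lay above all 4 others, and the gap between stages was larger than that between replicates. Over all distal regions the shares were 10.6% and 9.54% in hESC, 9.27% and 9.31% in hDE, 7.73% in hAFE and 6.86% in hPFE, lowest in the foregut libraries and not raised in hDE. Regions of other single stages also carried H3K4me2 most often at their own stage. The hESC-only regions had it in 53.3% and 50.6% in hESC and in 6.01% and 6.73% in hDE. The hPFE-only regions had it in 30.1% in hPFE and in 3.66% and 3.72% in hDE. Regions with H3K27ac in hDE and elsewhere carried H3K4me2 at every stage, in 47.1% and 45.4%, 57.7% and 59.2%, 42.9% and 34.0%. With 2 libraries per stage or fewer no test was made of these shares.

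**Figure D1:**
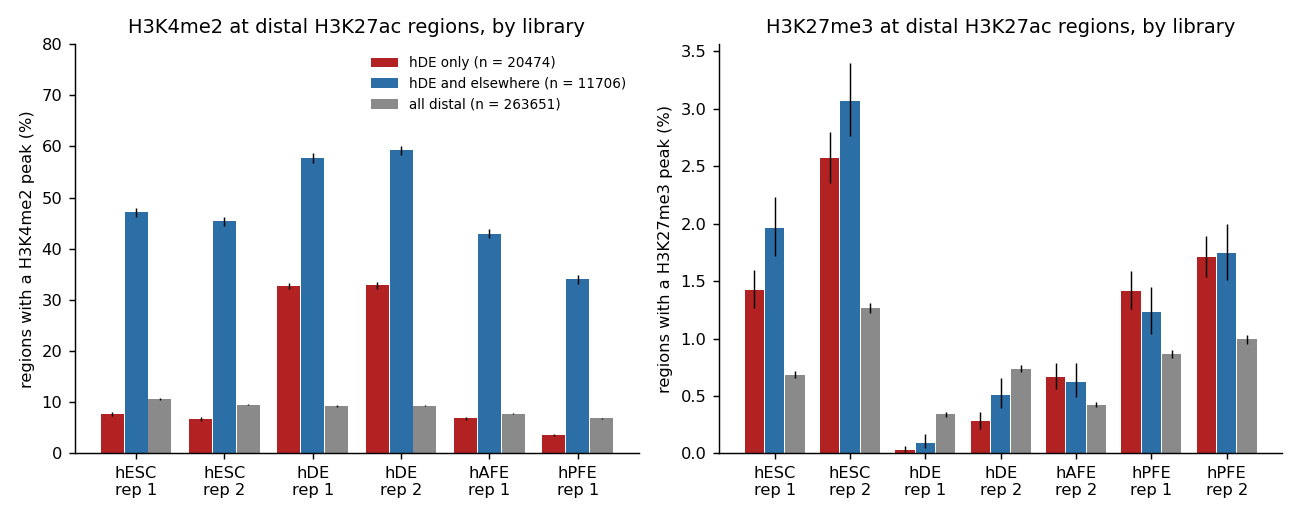
Percent of regions overlapped by a peak of H3K4me2 (left) and H3K27me3 (right) in each library. Red bars are hDE-only regions, blue bars regions with H3K27ac in both hDE libraries and elsewhere, and grey bars all distal regions, with exact 95% binomial intervals that cover counting error only. H3K4me2 on hDE-only regions stood at 32.7% and 32.8% in hDE and at 3.61 to 7.64% in the other libraries, while H3K27me3 was lowest in hDE.

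Counted over both replicates, 4128 hDE-only regions (20.2%) had H3K4me2 in both hDE libraries, against 5.49% of all distal regions, and 787 (3.84%) had it in both hESC libraries, against 6.62%. The mark was in both hDE and no hESC library at 3171 (15.5%, against 2.36%) and in hDE alone of all stages at 2758 (13.5%, against 1.79%). A further 10059 (49.1%) had it in no library of any stage, against 73.1%, and 153 (0.747%) in all 6 libraries, against 1.50%. Only 37.5% of all distal regions had H3K27ac in at least 1 hDE library, and they were narrower (median 210 bp against 482 bp). The part of either in these gaps was not tested. H3K4me2 rarely outlasted hDE at these regions. Of the 4128 regions with it in both hDE libraries, 15.9% had it in the hAFE library and 9.13% in the hPFE library, where the shares were 64.2% and 53.6% for hDE and elsewhere. Counting a peak within 1 kb of the region raised the share in both hDE libraries to 38.0%, and requiring an overlap of 200 bp lowered it to 12.6%.

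H3K4me2 went with the strength of the H3K27ac peaks. Among the 546 hDE-only regions whose hDE peaks ranked on average within the first 5000, 61.0% had H3K4me2 in both hDE libraries, and the share went down band by band to 6.48% of the 1759 weakest. In the same bands of hDE and elsewhere it went from 84.1% to 18.2%, so hDE-only regions were lower at like rank in each of the 7 bands. In hESC the mark stayed at 2.96 to 8.24% of hDE-only regions over the bands, where hDE and elsewhere had 23.8 to 56.8%. Stronger regions were also wider, with a median of 1722 bp in the first band and 313 bp in the last, which gives a peak more room to overlap. At like rank hDE and elsewhere was wider than hDE-only regions, with 2098 bp in the first band and 531 bp in the last. The part of width in the trend and in the gap between the 2 classes was not tested.

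**Figure D2:**
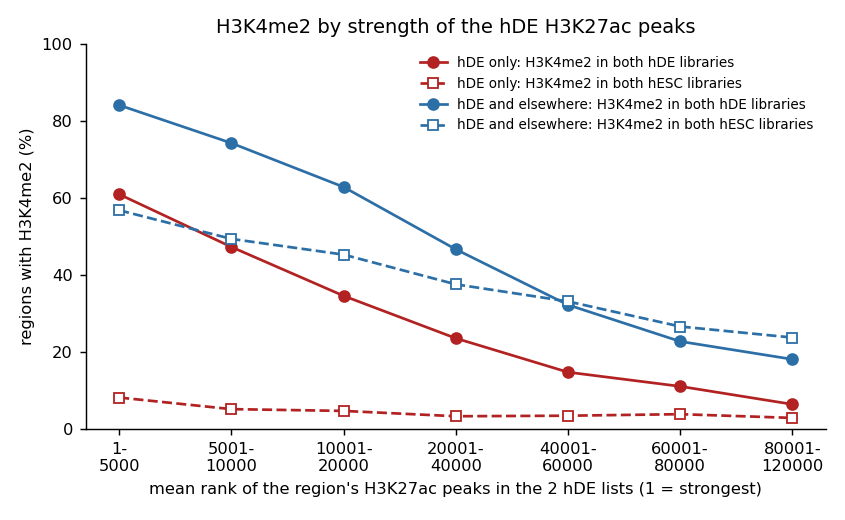
Percent of regions with H3K4me2 in both hDE libraries (filled) or both hESC libraries (open) by mean rank of their hDE H3K27ac peaks, strongest on the left, for hDE-only regions (red) and regions with H3K27ac in hDE and elsewhere (blue). The red filled line goes from 61.0% to 6.48% and lies under the blue filled line, which goes from 84.1% to 18.2%.

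H3K27me3 covered few hDE-only regions, and fewest in hDE itself. It overlapped 291 (1.42%) and 526 (2.57%) in the hESC libraries, 6 (0.0293%) and 57 (0.278%) in the hDE libraries, 137 (0.669%) in the hAFE library, and 290 (1.42%) and 350 (1.71%) in the hPFE libraries. In hESC these shares exceeded those of all distal regions (0.687% and 1.27%), and in hDE they lay below them (0.341% and 0.739%). A low share at the own stage was not particular to hDE-only regions. The hESC-only regions had 0% and 0.166% in hESC and 0.549% and 1.17% in hDE. The hPFE-only regions had 0.257% and 0.395% in hPFE, 0.223% in hAFE, and 0.961% and 1.84% in hESC. Regions of hDE and elsewhere stood higher than hDE-only regions, at 1.96% and 3.07% in hESC and 0.0940% and 0.513% in hDE. The lists themselves held like numbers of peaks in the 2 stages, with 27958 and 55027 in hESC and 28200 and 65995 in hDE. They covered more of the genome in hESC, 19.5 and 31.8 Mb against 16.5 and 20.3 Mb, and the part of this in the shares was not tested. Replicate 1 of hESC, hDE and hPFE carries the word millipore in its file name, the sources used here do not say what it denotes, and within each of these stages replicate 1 gave the lower share.

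Where hESC had H3K27me3, hDE mostly had no peak. At least 1 hESC library marked 549 hDE-only regions (2.68%, against 1.34% of all distal regions and 3.4% of hDE and elsewhere). Of these 549 regions, 528 (96.2%) had no H3K27me3 in hDE. That course was seen in 2.58% of hDE-only regions and 1.10% of all distal regions. With 3.23% of hDE and elsewhere, it was not particular to hDE-only regions. Over all distal regions 81.7% of those marked in hESC had none in hDE, and over hDE and elsewhere 378 of 398 had none. Of the 549 regions, 51.4% had H3K4me2 in both hDE libraries, compared with 19.3% of hDE-only regions without H3K27me3 in hESC, and 47.9% had H3K4me2 in at least 1 hESC library. Without hESC replicate 2 of H3K27me3 the marked regions were 1.42%.

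In 250 hDE-only regions H3K27me3 was in both hESC libraries and in neither hDE library (1.22%, against 0.424% of all distal regions and 1.49% of hDE and elsewhere). These 250 regions lay nearest to 174 genes. At 53 of the regions the mark was back in both hPFE libraries (0.259%, against 0.0410% of all distal regions and 0.0598% of hDE and elsewhere). The rule shut out regions with H3K27ac in hESC or hPFE. Among hDE and elsewhere, 6704 had H3K27ac in at least 1 hESC library and 7619 in at least 1 hPFE library. The part of this in the gap was not tested. Genes with more than 1 such returning region included TRIM27 (4), APAF1 (3), NTN1 (3), EPHB3 (2), and the developmental regulators EOMES (3), GATA4 (3) and LHX1 (2). These genes were named after their counts were seen.

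The NODAL region is the clearest case. NODAL encodes the secreted ligand that induces endoderm, and chr10:70438036-70443824 is a 5789 bp region inside that gene, whose inner promoter sequence is printed above. H3K27ac stood there at fold enrichments of 9.67 and 15.6 in hDE and in no other library. H3K27me3 was present in hESC (11.2 and 17.4), had no peak in hDE, and was present again in hAFE (10.5) and hPFE (4.45 and 10.4). H3K4me2 was found in all 6 libraries, at 4.76 and 12.4 in hESC, 5.71 and 7.63 in hDE, 5.17 in hAFE and 4.91 in hPFE. Fold enrichments come from separate lists, so these values show where peaks were called and do not rank the stages.

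A like course was seen near EPHB3, an ephrin receptor gene, and EOMES, a T-box factor of the primitive streak. The EPHB3 region chr3:184603717-184604955 had H3K27ac at 13.6 and 18.7 and H3K27me3 at 11.1 and 17.2 in hESC, none in hDE or hAFE, and 5.30 and 5.49 in hPFE. At EOMES, 3 regions 5022 to 6802 bp upstream of the gene (chr3:27727735-27728591, chr3:27728741-27729391 and chr3:27729515-27730424) had H3K27me3 in both hESC libraries, neither hDE library, the hAFE library and both hPFE libraries. Their H3K27ac fold enrichments were 6.72 and 4.45, 10.7 and 7.72, and 7.67 and 10.5. By contrast, the region chr18:21934354-21936845, 63401 bp from MIB1 on the side of GATA6, had H3K27me3 in hESC (4.24 and 7.05) and no peak at any later stage.

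H3K27me3 on an hDE-only region in hDE was rare: 61 regions had it in at least 1 hDE library (0.298%, against 0.868% of all distal regions) and 2 in both. The strongest of these lay near CD300E, DET1, WNT7A, CDH12 and LIPI, each with the mark in 1 hDE library at a fold enrichment of 2.29 to 3.24. H3K27me3 at later stages was more frequent, with 481 regions marked in hAFE or hPFE but in neither hESC nor hDE. This was 2.35% of hDE-only regions, against 1.60% of all distal regions, 2.44% of hDE and elsewhere and 3.36% of hESC-only regions. Among the 481 were the SLC5A9 region described above (4.00 and 4.20 in hPFE), 2 ZC3HAV1 regions and a region near A2ML1.

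By position, hDE-only regions lay outside genes more often than other distal regions. Of them, 46.2% lay inside a protein-coding gene, compared with 57.2% of all distal regions and 61.1% of hDE and elsewhere. The median distance to the nearest end of a protein-coding gene was 53878 bp (51468 bp for all distal regions), and 35.4% were over 100 kb away (34.1%). H3K4me2 in both hDE libraries was found on 27.7% of those 2 to 10 kb from a gene end and on 15.0% of those over 200 kb away, and on 23.5% inside against 17.3% outside genes.

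Chromosome X stood apart from the autosomes. On autosomes 5.73% (chromosome 22) to 8.60% (chromosome 14) of distal regions were hDE only, and on X 790 of 4055 (19.5%). H3K4me2 in both hDE libraries was less frequent on X, at 60 of these 790 regions (7.59%) compared with 20.7% on autosomes, while median H3K27ac fold enrichments were alike (3.99 and 3.97 on X, 3.83 and 3.92 on autosomes). The X chromosome held 2.69% and 2.73% of all hDE H3K27ac peaks, against 2.01% and 1.99% in hESC, 2.03% and 1.67% in hAFE, and 1.68% and 0.962% in hPFE. On X 26.3% of distal regions were in both hDE libraries (12.0% on autosomes) and 7.92% in both hESC libraries (4.42%).

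The hDE-only regions were grouped along the genome. Linked at 50 kb, they formed 8210 groups, of which 3709 were single regions and 2531 held 3 or more (62.6% of all hDE-only regions). There were 203 groups of 10 or more. These counts have no counterpart over all distal regions here, so they do not show by themselves that the set was more grouped than others. The number of groups of 3 or more was 474 with peak lists of equal length, and 6448 and 5650 without hDE H3K27ac replicate 1 or 2, where 1 hDE peak sufficed. Neighbours often lay close together: the median distance to the next hDE-only region was 487 bp, and joining those 1 kb or less apart left 13814 stretches, which formed 1252 groups of 3 or more. Next to an hDE-only region, 33.4% of neighbouring distal regions were hDE only too, compared with 7.77% of all distal regions. The ratio of these shares was 4.30. It was 9.69 for hESC-only regions (22.1% against 2.28%) and 5.68 for hPFE-only regions (12.5% against 2.21%). For regions with H3K27ac in every library it was 30.5. By this ratio hDE-only regions were thus the least grouped of these classes. Among neighbours at least 5 kb away the hDE-only share was 11.3%, a ratio of 1.45. The same measure gave 4.92% for hESC-only regions (ratio 2.16) and 4.00% for hPFE-only regions (1.81), so the hDE-only ratio was again the lowest. Regions in groups of 10 or more had H3K4me2 in both hDE libraries less often (16.7%) than single ones (23.1%), although they were wider (564.5 and 392 bp at the median).

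The largest group held 34 regions over 141 kb at ROR2, a receptor for WNT5A, and included 34 of the 70 distal regions in its span. Next came 32 regions over 238 kb at PPM1H, a phosphatase gene, and 29 over 221 kb around GATA6. The other 7 of the first 10 lay at MANEA (24), CDH2 (24), LOC124904660 (23), RNF152 (23), LOC124903233 (23), BMP2 (21) and KLF7 (21). H3K4me2 in both hDE libraries was on 7 regions of the ROR2 group, 0 at PPM1H, 4 at GATA6, 9 at KLF7 and 0 at LOC124903233. The ROR2 group also had 6 regions with H3K27me3 in hESC.

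In all, 5530 of 19970 protein-coding genes (27.7%) were the nearest gene of at least 1 hDE-only region and 452 (2.26%) of 10 or more. The nearest gene is a matter of position only. For 70.4% of the 19393 regions outside chromosome 8 the same gene was nearest when only gene starts were used. Starts were known for 15811 of the 19970 genes, so part of the difference can come from genes without one. Genes with the most were AUTS2 (62), FAM135B (49), CDH2 and PLXNA2 (45 each), LOC124903233 (44), FLRT2 (40), ZNF385D (37), ROR2 and CTNNA2 (36 each) and DUSP10 (35). CDH2, PLXNA2, FLRT2 and CTNNA2 encode proteins of cell adhesion or axon guidance, and AUTS2 had 342 distal regions in all. Their hDE-only share ran from 13.3% at LOC124903233 to 34.3% at ROR2.

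Genes with many hDE-only regions more often had H3K27ac at their own ends in hDE and not in hESC. Among genes with no H3K27ac at a gene end in hESC, 14.7% had it in both hDE libraries. That share was 11.2% for genes with 0 hDE-only regions, 22.5% with 1, 21.1% with 2, 23.3% with 3 to 5, 28.0% with 6 to 9 and 39.2% (89 of 227) with 10 or more, with little difference between 1 and 5 regions. For absence in hAFE, of genes with the mark in both hDE libraries 12.5% had it in neither hAFE library, with 10.7% of those with 0 hDE-only regions, 14.4% with 1, 14.5% with 2, 16.8% with 3 to 5, 18.3% with 6 to 9 and 27.1% (79 of 291) of those with 10 or more. H3K27me3 in both hESC libraries was on 19.3% of genes, 17.5% of those with 0 and 33.0% of those with 10 or more. Genes with more hDE-only regions also had more distal regions of any class, with medians of 2, 10 and 88.5 at 0, 1 and 10 or more, and the part of this in the trend was not tested. The H3K27ac measures come from the same libraries as the rule.

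**Figure D3:**
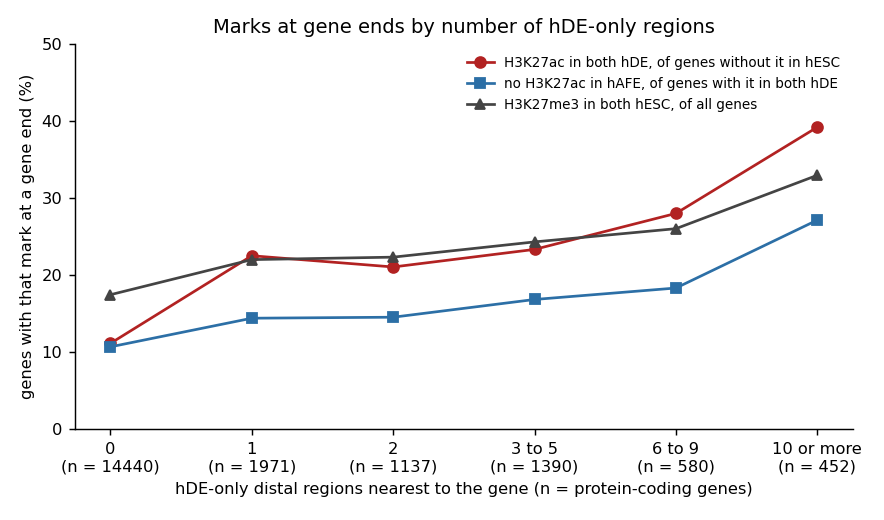
Percent of protein-coding genes with a given mark at a gene end, by the number of hDE-only regions nearest to them. Red circles show H3K27ac in both hDE libraries among genes without it in hESC, blue squares its absence in hAFE among genes with it in hDE, and black triangles H3K27me3 in both hESC libraries. Genes with 10 or more regions stand at 39.2%, 27.1% and 33.0%, compared with 11.2%, 10.7% and 17.5% at 0 regions.

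Gene lists showed where hDE-only regions were dense. Of 242 listed genes, 125 were nearest to at least 1, where 27.7% of all protein-coding genes were. A gene with more distal regions can more readily have 1, and the median over all protein-coding genes was 4 distal regions. Around the 26 definitive endoderm genes, 161 of 702 distal regions (22.9%) were hDE only, and 19 of the 26 genes (73.1%) had at least 1. Around the 16 primitive streak genes it was 55 of 179 (30.7%), and 11 genes (68.8%) had at least 1. EOMES, GSC, LHX1, MIXL1 and NODAL are in both lists and account for 39 of these regions, and without them the shares were 122 of 583 (20.9%) and 16 of 60 (26.7%). The share was 7.77% over all genes. Extraembryonic endoderm genes reached 71 of 396 (17.9%), of which 32 lay at genes shared with the definitive endoderm list, and 12.8% without those. The lists of migration and adhesion (11.5%), WNT signalling (9.65%) and BMP signalling (9.54%) genes were above 7.77%, and those of Nodal and activin signalling (7.94%), pluripotency (7.67%) and FGF signalling (7.48%) genes near it. Some of these shares rested on 1 gene. Without BMP2 the BMP list had 56 of 750 (7.47%), and the median share per gene in the whole list was 1.47%. Without the gene of most hDE-only regions in each list, the pluripotency genes had 3.84%, the migration and adhesion genes 10.1% and the WNT genes 9.05%. Liver, pancreas and intestine genes (14 of 215, 6.51%), pharyngeal (4.97%) and mesoderm and blood (3.48%) genes lay below 7.77%. Housekeeping genes had 2 of 15 (13.3%) and neural genes 18 of 196 regions (9.18%), both above 7.77%. The neural share was thus near those of the WNT and BMP lists.

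**Figure D4:**
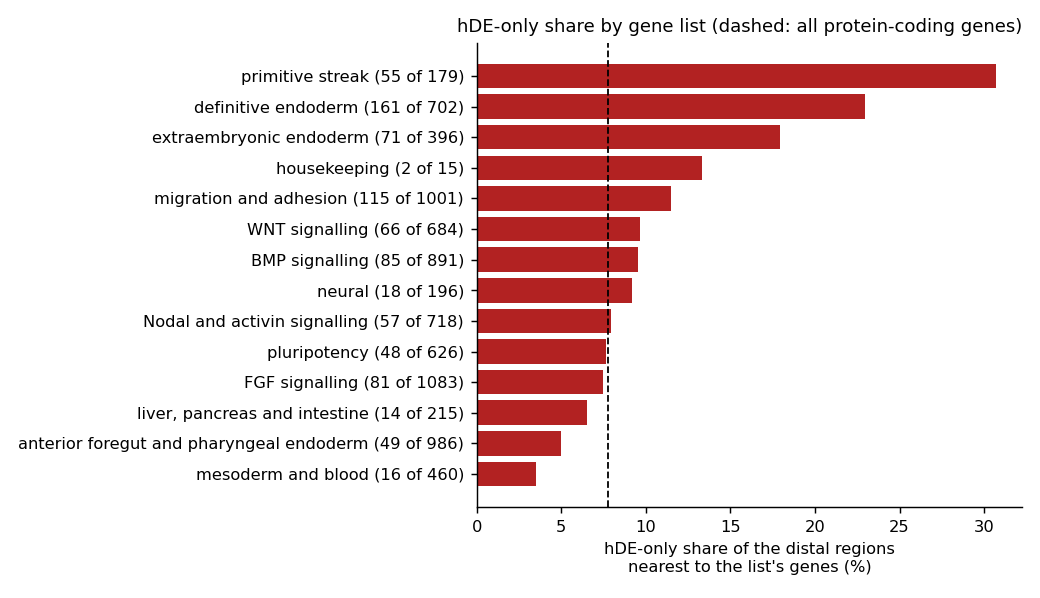
Percent of the distal H3K27ac regions nearest to the genes of each list that were hDE only, with their counts. The dashed line is the share over all protein-coding genes, 7.77%, and primitive streak (30.7%) and definitive endoderm (22.9%) genes lie farthest above it; the housekeeping bar rests on 2 of 15 regions.

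Several transcription factors of the endoderm had dense sets. GATA6, which drives endoderm formation, had 28 of 70 distal regions, from 2924 bp to 148 kb away. None of the 28 had H3K4me2 in hESC, hAFE or hPFE, where 3.61 to 7.64% of all hDE-only regions had it per library. In both hDE libraries 4 of the 28 had it, where the share over all hDE-only regions was 20.2%. The strongest of the 28, chr18:22027125-22029009, lay 140580 bp upstream with fold enrichments of 11.5 and 13.6 and H3K4me2 in both hDE libraries (3.74 and 3.49). GSC, a homeobox gene of the organizer, had 11 of 28, led by chr14:94761024-94763362, 4861 bp downstream, with 12.9 and 11.2. LHX1, a LIM homeobox gene, had 14 of 40, of which 5 already had H3K4me2 in both hESC libraries. GATA4 had 10 of 30, with H3K4me2 in both hDE libraries at 7 and H3K27me3 in hESC at 6, the highest such count among the 30 listed genes with the most hDE-only regions. FOXA2, a forkhead pioneer factor, had 10 of 63, with H3K27me3 in hESC at 4. EOMES had 7 of 37, MIXL1 4 of 8, OTX2 5 of 50 and SOX17 2 of 11. PRDM1, a repressor, had 18 of 101, and 9 of them lay inside the gene.

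At the start of GSC and of MIXL1 itself H3K27ac was also in both hDE libraries alone, at 16.3 and 22.4 and at 6.09 and 9.31. Their promoter windows are shown as the gene starts that these distal sets surround (capitals as above).
GSC, chr14:94770114-94770363, minus strand: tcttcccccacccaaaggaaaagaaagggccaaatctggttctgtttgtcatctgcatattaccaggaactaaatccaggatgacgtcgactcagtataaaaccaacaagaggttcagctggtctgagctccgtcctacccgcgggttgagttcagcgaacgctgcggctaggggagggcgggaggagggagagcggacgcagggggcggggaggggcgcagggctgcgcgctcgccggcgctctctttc
MIXL1, chr1:226223414-226223663, plus strand: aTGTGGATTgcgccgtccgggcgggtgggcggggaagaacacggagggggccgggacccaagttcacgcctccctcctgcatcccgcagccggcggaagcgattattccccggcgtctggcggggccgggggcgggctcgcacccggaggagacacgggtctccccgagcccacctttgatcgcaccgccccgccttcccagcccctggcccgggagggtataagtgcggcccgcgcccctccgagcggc
The MIXL1 window holds TGTGGATT, the FOXH1 motif on the other strand, which 0.709% of all promoter windows hold on either strand. GSC holds none of the 5 motifs. Windows of GATA6, CXCR4, EOMES, NODAL and WNT3 that also had H3K27ac in hDE alone held none of them either.

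Surface receptors used to recognise definitive endoderm had hDE-only regions as well. CXCR4, a chemokine receptor, had 11 of 55, of which 10 stood in 1 group reaching from 4101 to 120157 bp upstream, and 1 of the 11 had H3K4me2 in both hDE libraries. The strongest, chr2:136136193-136138363, had fold enrichments of 8.47 and 11.2 and no H3K4me2 in any library. KIT, the receptor of stem cell factor, had 15 of 51, of which 7 lay inside the gene and 5 had H3K4me2 in both hDE libraries. ACKR3, a second receptor of the CXCR4 ligand, had 8 of 48.

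**Figure D5:**
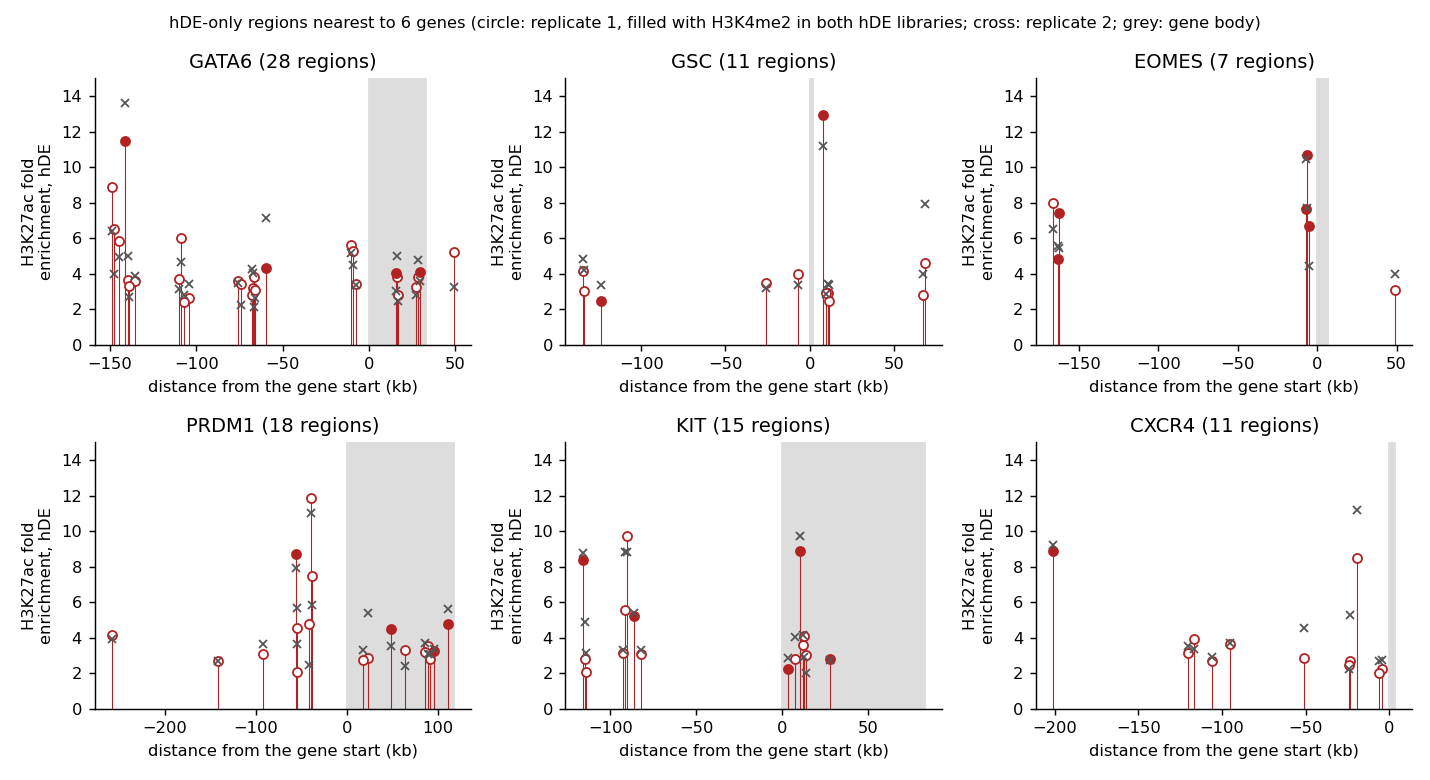
H3K27ac fold enrichment in hDE (the authors' values; circles replicate 1, crosses replicate 2) of the hDE-only regions nearest to 6 genes, by distance in kb from the gene start along the gene's strand. Filled circles had H3K4me2 in both hDE libraries and grey bands are gene bodies. GATA6 regions reach from its far upstream side into the gene, and 3 EOMES regions stand just upstream of its start.

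Among ligands and their antagonists, BMP2 had 29 of 141 regions, with H3K4me2 in both hDE libraries at 8 and in both hESC libraries at 0. LEFTY1 and LEFTY2, secreted antagonists of Nodal, had 3 of 7 and 5 of 8, NODAL itself 3 of 6, and CER1 1 of 4. FRZB, a secreted WNT antagonist, had 7 of 16, all within 8.53 kb of the gene. BMP7 had 11 of 54 and FGF10 7 of 59. WNT3 had 1 of 11.

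Receptors and feedback inhibitors also had hDE-only regions, in shares that overlapped those of the ligands. Some were near the 7.77% of all distal regions and do not set the gene apart: ACVR2A (8.53%), FGFR2 (7.32%), SPRY2 (7.14%) and, below, FLRT3 (7.52%). ACVR2A, an activin receptor, had 18 of 211 and FGFR2 9 of 123. SPRY2 and SPRED2, inhibitors of receptor tyrosine kinase signalling, had 21 of 294 and 20 of 93. ID2 and SMAD6, which act within BMP signalling, had 14 of 111 and 12 of 79, and AXIN2 and CTNNB1 of the WNT pathway 7 of 32 and 7 of 47. In the matrix and adhesion group, CDH2 (N-cadherin) had 45 of 310, COL4A1 17 of 51, all inside the gene, LAMA1 11 of 68 and FLRT3 10 of 133.

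Further regions lay at GATA3 (9 of 93), MEIS1 (10 of 128) and PAX1 (8 of 79), a factor of the pharyngeal pouches. The MEIS1 share was 7.81%, near the 7.77% of all distal regions. GATA3 and PAX1 had no H3K27ac at a gene end in hDE. In contrast, FOXA1, FOXA3, HHEX, SHISA2, SOX7, FGF17 and RIPPLY1 of the definitive endoderm list were the nearest gene of 0 hDE-only regions, and had 0 to 5 distal regions of any class.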

How the data were processed

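Peak lists of 21 libraries were used; the 4 input samples entered only as the authors' controls. Per the deposited file names, every library had its own peak list, called by the authors with the stage's input as control, after duplicates were removed, at a p-value threshold of 0.01. Coordinates are hg38, per the submitters' processing notes; which aligner and peak caller were run is not given in the sources used here. The deposited narrowPeak columns hold a score (not used), a fold enrichment (ratio to the control) and, as −log10 values, a p-value and a q-value, the authors' own for that list. They rank or filter peaks within 1 list only.

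Regions were built and marks assigned with Python 3.11.15, numpy 2.4.6, pandas 2.3.3 and scipy 1.17.1. A mark was present where at least 1 bp overlapped a peak. Distances run to the annotated starts and ends of 59094 genes (RefSeq, GRCh38.p14), and nearest genes are protein-coding. Groups were linked at 50 kb. The scripts were tested on simulated peaks. Regions are not replicates and the set was chosen by H3K27ac, so shares stand beside those of all distal regions and no p-value was computed. Intervals are exact (Clopper-Pearson, 95%). Depth is unknown.

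The regions, gene lists and markers were chosen with earlier results of these data known. Genes were named by rule: the 15 strongest regions, the 10 largest groups, the 10 genes with most regions, up to 30 listed genes with most regions, the 5 strongest regions of 5 mark classes and 3 regions on either side of the 2 kb limit. A few items that these rules name are not reported here. Other listed genes and the sequences shown were chosen after their values were seen. Alternatives changed the overlap, the distance, the linking distance, the peak threshold, the list length and the libraries used.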

Additional observations from a re-analysis of the deposited data

How the results depend on the processing

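No paired analysis was possible because the results are counts and shares of regions that come from no test. The number of hDE-only regions was 4926 with lists of equal length and 20676 to 56770 with 1 library left out; it rose to 56770 without hDE H3K27ac replicate 1 and 50089 without replicate 2, since 1 hDE peak then sufficed. Groups of 3 or more numbered 474 with lists of equal length, 1252 after joining regions 1 kb or less apart, and 2552 to 6448 with 1 library left out (6448 and 5650 without hDE H3K27ac replicates 1 and 2). H3K4me2 in both hDE libraries, 20.2% of regions, was 12.4% with a −log10 q of at least 2, 40.9% with lists of equal length, 12.6% with an overlap of 200 bp, 19.3% over 5 kb from gene ends, 20.9% with neither hAFE library in the rule, 21.9% with neither hESC library, 38.0% within 1 kb and 27.5% after joining. With 1 library left out it ran from 9.39% (without hDE H3K27ac replicate 1; 10.7% without replicate 2) to 32.8% (without hDE H3K4me2 replicate 1; 32.7% without replicate 2). H3K4me2 in both hESC libraries, 3.84%, was 6.72% with lists of equal length, 2.75% with an overlap of 200 bp, 8.15% with neither hESC library in the rule, 8.91% within 1 kb and 5.35% after joining, and 2.83 to 7.64% with 1 library left out (6.74% and 7.64% without hESC H3K4me2 replicates 1 and 2, from 1 library alone). H3K27me3 in at least 1 hESC library, 2.68%, was 5.26% within 1 kb and 1.42 to 2.76% with 1 library left out, lowest without hESC H3K27me3 replicate 2. Leaving out both libraries of hAFE or hESC, the 1 kb window and the joining were chosen after seeing the data. Linking at 25 or 100 kb gave 2376 and 2602 groups of 3 or more, against 2531.

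Peak lists give presence or absence at a threshold, not amounts. Depth per library is unknown, hAFE had the shortest H3K27ac lists, and H3K27ac and H3K27me3 of hESC come from an earlier deposit. H3K4me2 of hAFE and hPFE and H3K27me3 of hAFE rest on 1 library each. Nearest genes are assigned by position, and no expression was used.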
